A study of Mus musculus with 4 samples.

Results

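Inflammasome genes were followed across 4 cultures of bone marrow-derived macrophages (BMDMs). They were chosen by symbol, as every non-control probe whose gene name in the array annotation was Nlrp3, Aim2, Nlrc4, Pycard, Casp1, Casp4 or Gsdmd. All 7 genes were found, on 9 probes and 18 spots, out of 23660 genes with a symbol. Each of the 9 probes was well above background on all 4 arrays, so no gene was lost to a filter on dim signals.

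Inflammasomes are protein platforms of innate immunity. A sensor recognizes a danger or microbial signal in the cytosol and, through the adaptor ASC, recruits caspase-1, which matures IL-1β and IL-18 and cleaves gasdermin D into a membrane pore that kills the cell by pyroptosis. In the non-canonical branch, mouse caspase-11, encoded by Casp4, binds cytosolic LPS and cleaves gasdermin D directly, and macrophages are the cells in which these routes are best known.

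RNA of each culture was hybridized to 1 Agilent whole mouse genome array in 1 colour. BMDMs of 10-week-old C57BL/6J mice were grown for 6 days with supernatant of L929 cells, a source of the growth factor M-CSF, and then stimulated for 2 days. Wild-type M1 BMDMs received IFN-γ at 20 ng per ml with LPS at 100 ng per ml, and wild-type M2 BMDMs received IL-4 at 50 ng per ml. Lamtor1-deficient M2 BMDMs lacked the lysosomal anchor of the kinase mTORC1, labelled p18 -/-, and received the same IL-4. Torin1-treated M2 BMDMs were wild-type cells given the same IL-4 together with Torin1, an ATP-competitive inhibitor of mTOR, at 250 nM. The deletion, by the study's methods, was made by LysM-Cre in floxed mice, so it is driven in myeloid cells. No unstimulated BMDMs were analysed here, and M1 cells without Lamtor1 or with Torin1 were not either. With 1 array per condition there is no replicate check, no test and no p-value, and a difference between arrays may belong to the culture as much as to the condition.

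The targeted gene and the summed markers followed the labels, with exceptions among single markers. The Lamtor1 probe on the Lamtor1-deficient array was at 2.34% of its level on the M2 array after scaling. All 9 macrophage markers on the array were well above background in every culture, with a summed scaled level of 487 to 838. The Csf1r probe made 485 of the 838 in M2. Of the 9, 3 were 2-fold or more lower than in M2 in each of the other cultures, and 1 was higher, in M1. Adgre1 was at 112 in M2, 18.8 without Lamtor1 and 15.9 with Torin1. Lymphocyte markers summed to 2.70 to 4.68, and without Lamtor1 4 of the 10 were 2-fold or more higher and 3 lower. Fibroblast markers summed to 43.7 in M2, 57.0 without Lamtor1, 16.4 in M1 and 15.7 with Torin1. Eosinophil and mast cell markers summed to 2.14 to 10.3, highest without Lamtor1, and dendritic cell markers to 89.1 to 234, highest in M1. These sums add different probes, so they follow the probes of highest signal and do not rank the genes. The Siglech probe made 232 of the 234 in M1 and 87.9 of the 89.1 without Lamtor1, and the Siglecf probe 9.99 of the 10.3 without Lamtor1, where 4 of the 8 eosinophil and mast cell markers were 2-fold or more lower than in M2 and 1 higher. The summed M1 markers were 965 in M1, 581 of it from the Nos2 probe, and 3.00 to 20.1 in the IL-4 cultures, and the summed M2 markers were 1364 in M2, 777 without Lamtor1, 588 with Torin1 and 9.65 in M1. Of the 7 M1 markers, Il12b was not well above background on any array, and without Lamtor1 2 were 2-fold or more higher than in M2, among them Nos2 at 18.6 against 0.384, and 3 lower. With Torin1 2 were higher, among them Nos2 at 16.5, and 1 lower. Single M2 markers went other ways: Chil3 was at 488 in M2, 569 without Lamtor1 and 567 with Torin1, Ccl17 at 1.48 in M2 and 9.04 without Lamtor1, and Il10 at 0.136 in M2 and 3.69 in M1. Ccl22, at 1.43 without Lamtor1, was not well above background in M2. Neutrophil markers stood apart on the M2 array, which all 3 main comparisons share: the summed level of the 8 on the array was 90.7 there, against 4.47 on the M1, 6.37 on the Lamtor1-deficient and 6.13 on the Torin1-treated array. The number well above background was 4 on the M1 and 7 on each of the other arrays. S100a9 had a processed signal of 38844 for M2 and 395 to 1315 elsewhere. Ltf, which encodes lactoferrin of neutrophil granules, had a signal of 2996 for M2 and 5.06 to 73.1 elsewhere. The S100a9 probe made 65.3 of the summed 90.7. Cxcr2 and Retnlg were not highest for M2: Cxcr2 was well above background without Lamtor1 only, with a signal of 27.6 against 12.1 for M2, and Retnlg had 101 with Torin1 against 76.7 for M2. The part of such transcripts in the values below was not tested, and in RNA of whole cultures fewer cells of a type and less RNA per cell cannot be told apart.

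Promoter sequences of 3 genes are shown because their genes frame the results: Casp4, the member with the widest range over the arrays, Casp1, its neighbour on chromosome 9, and Nlrp3, the member closest to background. They are RefSeq sequences of the mouse assembly GRCm38.p6, 250 bases upstream of the annotated start, written 5′ to 3′ on the strand of the gene. Capitals mark matches to the NF-kappaB consensus on either strand. RefSeq windows were at hand for 6 of the 7 genes, all but Gsdmd.
Casp4, chr9:5308599-5308848, plus strand: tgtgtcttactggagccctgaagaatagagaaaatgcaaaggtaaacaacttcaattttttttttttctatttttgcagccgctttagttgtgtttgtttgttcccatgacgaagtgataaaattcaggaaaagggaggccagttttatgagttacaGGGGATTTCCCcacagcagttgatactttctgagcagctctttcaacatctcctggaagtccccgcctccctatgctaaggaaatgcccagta
Casp1, chr9:5298267-5298516, plus strand: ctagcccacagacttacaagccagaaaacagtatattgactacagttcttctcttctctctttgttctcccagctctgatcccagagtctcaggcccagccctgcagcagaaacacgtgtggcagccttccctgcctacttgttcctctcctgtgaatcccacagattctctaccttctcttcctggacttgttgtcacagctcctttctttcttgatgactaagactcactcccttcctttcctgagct
Nlrp3, chr11:59541319-59541568, plus strand: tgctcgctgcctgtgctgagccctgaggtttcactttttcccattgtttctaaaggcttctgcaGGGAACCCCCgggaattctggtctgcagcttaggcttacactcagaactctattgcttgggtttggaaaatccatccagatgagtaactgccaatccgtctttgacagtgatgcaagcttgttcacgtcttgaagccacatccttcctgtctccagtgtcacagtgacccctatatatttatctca

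The capitals in Casp4 cover overlapping matches, GGGGATTTCC from position -93 and GGGATTTCCC from position -92 relative to the start, and those in Nlrp3 mark GGGAACCCCC, which matches on the opposite strand. Of all 32851 RefSeq windows of 300 bases, 4.51% held a match to this consensus. Other patterns searched on both strands included GAAA repeated after a spacer of 2 bases, the interferon-stimulated response element, found in 3.44% of windows, and TTC and GAA spaced by 4 bases, as STAT6 prefers, in 6.95%. Neither of these stood in the Casp4, Casp1, Aim2, Nlrc4 or Pycard window, and a second Nlrp3 start held TTCCTTTGAA. A match describes letters in a window, and a window without one says nothing of a factor.

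Signals are given as scaled signals, which are the processed signal of the scanner software divided by the 75th percentile of its array. A scaled signal can be compared between arrays for the same probe, and not between probes. Errors of a log2 ratio are technical standard deviations (technical SD), from probes spotted at least 8 times per array in the same range of signal, and they hold no spread between cultures. Ratios are log2 ratios to the M2 array.

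Casp4 was the member that differed most. Its brightest probe (mm9, chr9:5336658-5336717) had a scaled signal of 244 in M1, 9.33 in M2, 11.9 in Lamtor1-deficient M2 and 14.5 in Torin1-treated M2 BMDMs. M1 was thus far above the other arrays, 26.2-fold over M2, a log2 ratio of 4.71 ± 0.076 (technical SD). A second Casp4 probe that overlaps the first gave 199, 7.28, 9.62 and 11.9 on the same arrays, and 27.3-fold over M2. Among the IL-4 cultures the order was Torin1-treated, then Lamtor1-deficient, then M2, on both probes and with each step beyond 2 technical SDs, though within 2 errors of the scanner software. The ratios to M2 were 0.64 ± 0.077 with Torin1 and 0.35 ± 0.074 without Lamtor1, both under 2-fold.

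Casp1, the inflammatory caspase that matures IL-1β and IL-18, had a scaled signal of 191 in M1, 49.0 in M2, 47.8 in Lamtor1-deficient M2 and 44.8 in Torin1-treated M2 BMDMs (mm9, chr9:5307206-5307265). The M1 array stood alone at 3.89-fold over M2 (log2 ratio 1.96 ± 0.076), and the 3 IL-4 arrays lay within 2 technical SDs of each other. Their ratios to M2 were -0.03 ± 0.074 without Lamtor1 and -0.13 ± 0.077 with Torin1.

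Gsdmd encodes gasdermin D, the pore former. Its probe was spotted 10 times per array, and the error of its mean is taken from its own spots (mm9, chr15:75697536-75697595). The mean scaled signal was 47.2 for M1, over 9 spots from 45.8 to 48.7. M2 spots ranged from 18.0 to 19.8 around a mean of 19.0, and Torin1-treated spots from 18.4 to 19.5 around 19.1. Lamtor1-deficient spots, from 14.1 to 15.4 around 15.0, lay below every M2 spot. Gsdmd was 2.48-fold higher for M1 than for M2 (log2 ratio 1.31 ± 0.015), at a ratio of -0.34 ± 0.017 without Lamtor1 and at 0.00 ± 0.014 with Torin1. The ratio without Lamtor1 was within 2 errors of the scanner software.

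**Figure D1:**
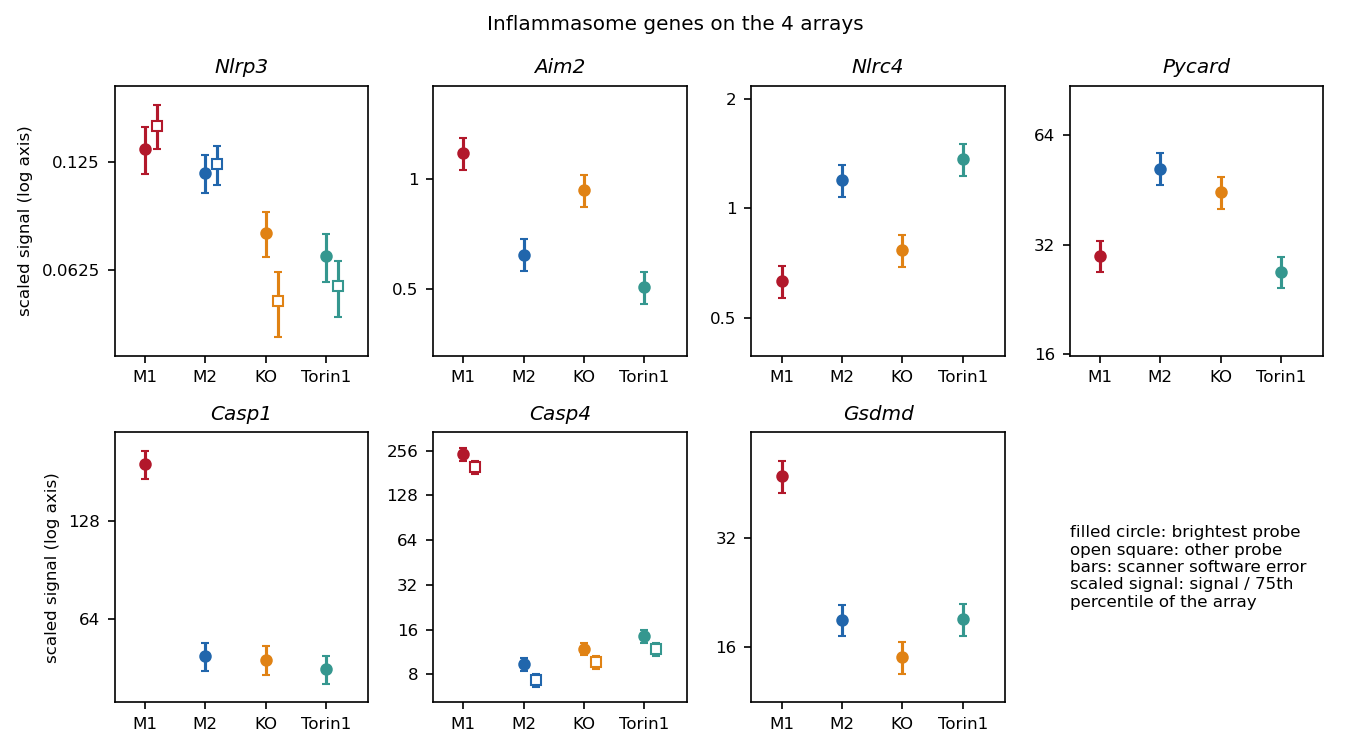
Scaled signal (processed signal over the 75th percentile of the array, log axis) of each inflammasome gene on the M1, M2, Lamtor1-deficient M2 (KO) and Torin1-treated M2 arrays. Filled circles are the brightest probe, open squares the other probe of Nlrp3 and Casp4, and bars the error given by the scanner software. M1 stands alone for Casp4 (244), Casp1 (191) and Gsdmd (47.2), and is low for Nlrc4 (0.631).

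Pycard encodes ASC, the adaptor that links sensors to caspase-1. It was highest in M2 BMDMs, with a scaled signal of 51.8, followed by 44.5 without Lamtor1, 29.9 in M1 and 27.0 with Torin1 (mm9, chr7:135136241-135136300). The M1 and Torin1-treated arrays did not differ beyond 2 technical SDs, and both were below the other arrays. The ratios to M2 were -0.80 ± 0.076 for M1, -0.22 ± 0.074 without Lamtor1 and -0.94 ± 0.077 with Torin1, so none reached 2-fold. The ratio without Lamtor1 was within 2 errors of the scanner software.

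Nlrc4 encodes the adaptor-like sensor that acts with NAIP receptors of flagellin and needle proteins. It was lowest in M1 BMDMs, at a scaled signal of 0.631, against 1.19 in M2, 0.769 in Lamtor1-deficient M2 and 1.37 in Torin1-treated M2 BMDMs (mm9, chr17:74826172-74826231). Torin1-treated and M2 arrays lay within 2 technical SDs of each other, above the Lamtor1-deficient and then the M1 array. The ratios to M2 were -0.92 ± 0.10 for M1, -0.64 ± 0.11 without Lamtor1 and 0.20 ± 0.10 with Torin1.

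Aim2, the sensor of double-stranded DNA, had a scaled signal of 1.18 in M1, 0.621 in M2, 0.932 in Lamtor1-deficient M2 and 0.506 in Torin1-treated M2 BMDMs (mm9, chr1:175396036-175396095). Each pair of neighbours in the order M1, Lamtor1-deficient, M2, Torin1-treated differed beyond 2 technical SDs. Its ratio to M2 was 0.92 ± 0.10 for M1. Loss of Lamtor1 and Torin1 lay on opposite sides of M2, at 0.59 ± 0.11 and -0.30 ± 0.10, and the Lamtor1-deficient array was 1.84-fold above the Torin1-treated one. The first and the last step of this order were within 2 errors of the scanner software, which are wider than the technical SD.

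Nlrp3, the sensor of potassium efflux and lysosomal damage whose transcription is the usual priming step, had the weakest signals of the group over background. On the probe with the higher mean log2 signal (mm9, chr11:59378554-59378613), its scaled signals were 0.136 in M1, 0.117 in M2, 0.0793 in Lamtor1-deficient M2 and 0.0682 in Torin1-treated M2 BMDMs. These processed signals of 32.0 to 69.4 were 2.03 to 3.21 times the lowest signal called well above background on their arrays. No neighbouring arrays differed beyond 2 technical SDs. The ratios to M2 were 0.23 ± 0.30 for M1, -0.56 ± 0.32 without Lamtor1 and -0.78 ± 0.30 with Torin1. The second probe (mm9, chr11:59379981-59380040) gave 0.158, 0.123, 0.0510 and 0.0561 in the same order. On that probe both M1 and M2 were above the Lamtor1-deficient and Torin1-treated arrays beyond 2 technical SDs, with ratios to M2 of 0.36, -1.27 and -1.14. The probes differed by 0.72 on the log2 scale for the Lamtor1-deficient array. The 2-fold mark was passed on the second probe only, there and with Torin1. That probe had the higher signal in M1 and M2, and the lower mean over the arrays.

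Counted against the array as a whole, 3 of the 7 genes were 2-fold or more higher in M1 than in M2 BMDMs, namely Casp4, Casp1 and Gsdmd, and 0 were 2-fold lower. The background was high, since 49.9% of all genes with a symbol differed 2-fold or more in this comparison, 30.7% higher and 19.2% lower, and 50.4% of those well above background on both arrays did. Of the genes called, 61.5% were higher, against 33.0% with the median shift and 44.0% with quantile normalization. The median log2 ratio was 0.92 over the 7 genes and 0.75 over all genes. That general shift depended on the scaling and on dim genes. The median over the 13451 genes well above background on both arrays was 0.09, and a shift of each array to its median gave -0.07 over all genes. Relative to the median of all genes, Casp4 stood at 3.96, Casp1 at 1.21, Gsdmd at 0.56, Aim2 at 0.17, Nlrp3 at -0.53, Pycard at -1.55 and Nlrc4 at -1.67.

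The scaling therefore decides the smaller M1 values. With the median shift Casp4 was still at 3.89 and Casp1 at 1.14, while Gsdmd was at 0.49 and no longer 2-fold. Aim2 moved to 0.10, and Nlrp3 turned to -0.60 with the median shift and was also below 0 with quantile normalization. Pycard at -1.62 and Nlrc4 at -1.74 passed 2-fold with the median shift. Both caspases and these 2 genes thus kept opposite signs in M1 relative to M2 under all 7 alternatives. The alternative of all probes could change only Casp4 among them. Without the M2 array, Casp4 was 20.5-fold higher in M1 than in Lamtor1-deficient and 16.8-fold higher than in Torin1-treated BMDMs, Casp1 3.99-fold and 4.26-fold, and Gsdmd 3.14-fold and 2.47-fold. The lower members depended on this reference: Pycard in M1 was at -0.58 against the Lamtor1-deficient and 0.15 against the Torin1-treated array, and Nlrc4 at -0.28 (within 2 errors of the scanner software) and -1.12.

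Between Lamtor1-deficient and wild-type M2 BMDMs, 0 of the 7 genes differed 2-fold on their brightest probe (the second Nlrp3 probe was at -1.27). Of all genes 17.6% did, 8.88% higher and 8.74% lower, and 15.6% of those well above background on both arrays. The ratios of the 7 ran from -0.64 for Nlrc4 to 0.59 for Aim2, with a median of -0.22 against 0.04 over all genes. Of the 7, 5 differed beyond 2 technical SDs: Aim2 and Casp4 above 0, and Nlrc4, Gsdmd and Pycard below. Of these, Casp4, Gsdmd and Pycard were within 2 errors of the scanner software. With Torin1, 0 of the 7 genes differed 2-fold on their brightest probe (the second Nlrp3 probe was at -1.14), against 26.1% of all genes, 14.3% higher and 11.7% lower, and 25.1% of those well above background on both arrays. The ratios ran from -0.94 for Pycard to 0.64 for Casp4 around a median of -0.13, beside -0.05 over all genes. Of all genes called with Torin1, 55.0% were higher, and 39.0% with the median shift. Here 4 differed beyond 2 technical SDs, Casp4 above 0 and Pycard, Nlrp3 and Aim2 below. With the median shift Pycard and Nlrp3 passed 2-fold, at -1.19 and -1.02, and Nlrc4 turned to -0.05. Beyond 2 errors of the scanner software were 6 of the 7 in M1, all but Nlrp3. Without Lamtor1 there were 3, namely Nlrp3, Aim2 and Nlrc4, and with Torin1 3, namely Nlrp3, Pycard and Casp4. With normexp the share of all genes that differed 2-fold was 40.8% in M1, 8.74% without Lamtor1 and 13.1% with Torin1. These comparisons use the same M2 array, so their values are given side by side and not correlated.

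**Figure D2:**
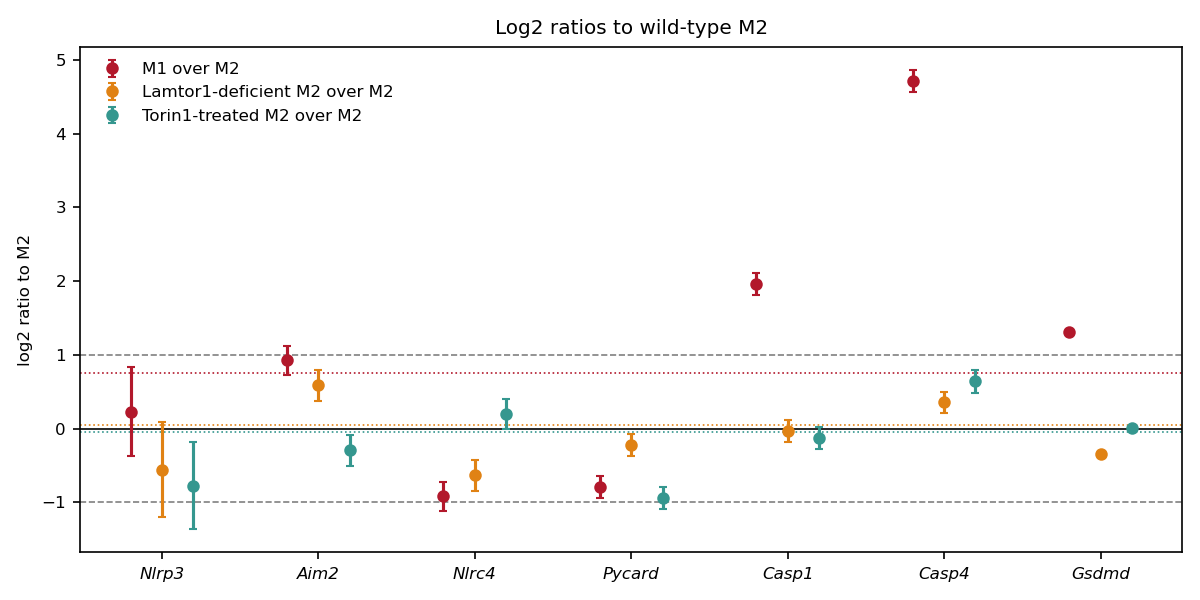
Log2 ratio to the M2 array of the brightest probe of each inflammasome gene, for M1, Lamtor1-deficient M2 and Torin1-treated M2, with bars of 2 technical SDs. Dashed lines mark 2-fold and dotted lines the median of all genes in each comparison, 0.75 for M1. Casp4 in M1, at 4.71, lies far above the rest, and no ratio without Lamtor1 or with Torin1 reaches 2-fold.

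**Figure D3:**
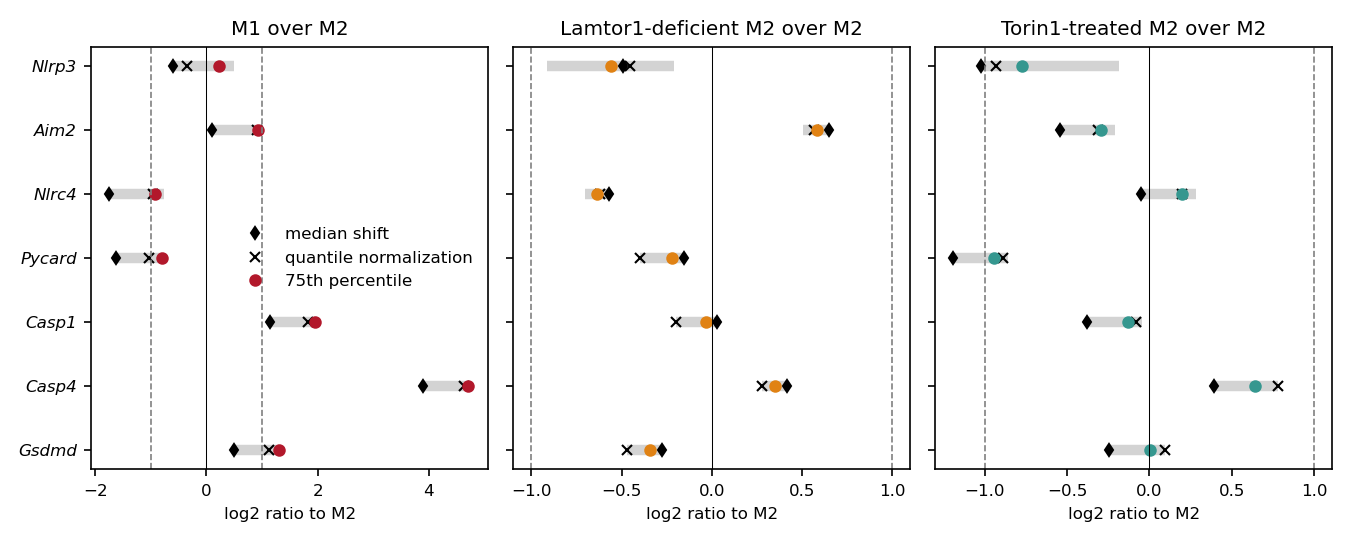
Log2 ratio to M2 of each gene with the 75th percentile, the median shift and quantile normalization, and the range over 7 alternatives as a grey bar. In M1 the median shift moves every gene to the left by the same amount, so Nlrp3 changes sign and Gsdmd falls below 2-fold, while Casp4 stays above 3.8.

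Casp4 and Casp1 follow each other on chromosome 9 in the RefSeq gene order, and the next gene is Casp12, a caspase counted here among the inhibitors of the pathway. Casp12 had a different profile, being high in M2 alone. Its processed signal was 140 in M2 BMDMs and 13.2 to 17.9 on the other arrays, where it was not well above background. It was at least 3.58-fold lower in M1, at least 6.27-fold lower without Lamtor1 and at least 7.0-fold lower with Torin1 than in M2. With normexp background correction its M1 ratio was -0.26 and its Torin1 ratio -0.999, both short of 2-fold. The summed neutrophil markers were also highest on that array.

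**Figure D4:**
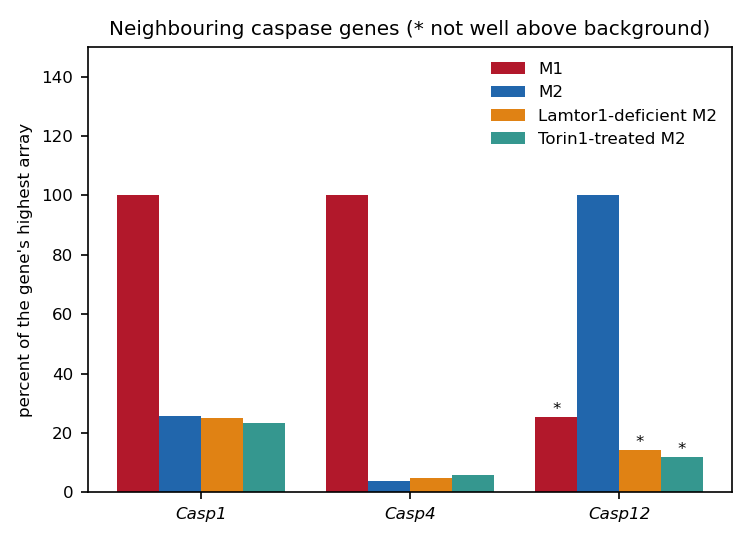
Scaled signal of the neighbouring genes Casp1, Casp4 and Casp12 as a percent of each gene's highest array, with stars over bars not well above background. Casp1 and Casp4 are highest in M1, with M2 at 25.7% and 3.82% of it, and Casp12 is highest in M2.

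Other genes of the pathway were taken from 6 lists by role, 71 genes of which 70 were on the array. In M1, 36 were 2-fold or more higher and 12 lower than in M2 (28 and 18 with the median shift), with a median log2 ratio of 1.18. Without Lamtor1 3 were higher and 14 lower, median -0.22, and with Torin1 6 were higher and 16 lower, median -0.33 (9 lower with normexp, 22 with the median shift and 11 among genes well above background on both arrays). Over all genes, 30.7% were higher and 19.2% lower in M1, 8.88% and 8.74% without Lamtor1, and 14.3% and 11.7% with Torin1. These shares apply beside the counts of each list below. NAIP, Nlrp1 and PYHIN genes have close paralogs, and how far their probes tell these apart was not tested.

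Among other sensors, 7 of 13 were higher and 2 lower in M1 (4 and 2 with the median shift). Naip1 and Naip5, receptors that hand bacterial ligands to NLRC4, were at 2.36 and 1.38, while Naip2 was at 0.98 and Nlrc4 itself was below 0. Naip6 was at 0.16, and only Naip1 of these stayed above 2-fold with the median shift. With Torin1 the NAIP genes were not uniform, at 1.52 for Naip1, 1.76 for Naip2, 0.62 for Naip5 and -0.37 for Naip6, and without Lamtor1 they were at -0.79, 0.42, 0.01 and -0.15. Zbp1 and Nod1, sensors of unusual nucleic acids and of bacterial peptidoglycan, were at 3.79 and 3.87 in M1.

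Without Lamtor1, 5 of the 13 other sensors were 2-fold or more lower than in M2 (4 under 3 of the 4 alternatives of scaling and background) and 0 higher. Nlrp1a was at -3.15, and Mefv, which encodes pyrin, was at -2.29. Mefv was also at -2.65 with Torin1, whereas Nlrp1a was at -0.50 there. Nlrp1b was at -2.83 without Lamtor1, -3.22 with Torin1 and -3.77 in M1, so it was highest on the M2 array alone. With normexp these ratios were -2.13, -2.28 and -2.10. These directions held under the 4 alternatives of scaling and background that were run on the lists.

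The PYHIN family, to which AIM2 belongs, was higher as a whole in M1. All 8 genes on the array were 2-fold or more higher, under each of these alternatives too, with a median of 3.68, beside 0.92 for Aim2. Pydc4 was at 6.05 (4.40 with normexp), Pyhin1 at 4.89 and Mnda at 4.77. Without Lamtor1 3 of the 8 were lower, among them Pyhin1 at -3.17, and 0 were higher (1 lower with normexp), while Aim2 was at 0.59. With Torin1 Ifi202b was the 1 gene called, at least 4.97-fold lower (0 genes with normexp, where it was at -0.83, and 2 with the median shift), and Pyhin1 was at -0.95.

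Of 18 activators and licensing factors, 4 were higher and 4 lower in M1, where 30.7% and 19.2% of all genes were. The sign of the list's median, 0.22, turned with the median shift (-0.60). Gbp5 and Gbp2, interferon-induced GTPases that open vacuoles and bacteria to the cytosolic sensors, were at 8.19 and 6.27, and Irf1, the factor that induces them, at 3.74. Nek7, the kinase that licenses NLRP3, was at -1.18, P2rx7, the ATP receptor, at -1.11, and Tlr4, the LPS receptor, at -2.86. Txnip was at -0.23 and Irf8 at -0.14. P2rx7 was lower without Lamtor1 as well, at -1.61, and at -0.78 with Torin1. Without Lamtor1 it was the 1 gene of the 18 called lower (4 with quantile normalization, 3 with another percentile). Txnip was at -0.94 there. Gbp2 was the 1 gene higher without Lamtor1, at 1.28, and Irf1 the 1 gene higher with Torin1, at 1.48, where Tlr4, Ripk3 and Tlr3 were at -1.58, -1.80 and -1.81. With normexp Tlr3 was at -0.83 there, under 2-fold.

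**Figure D5:**
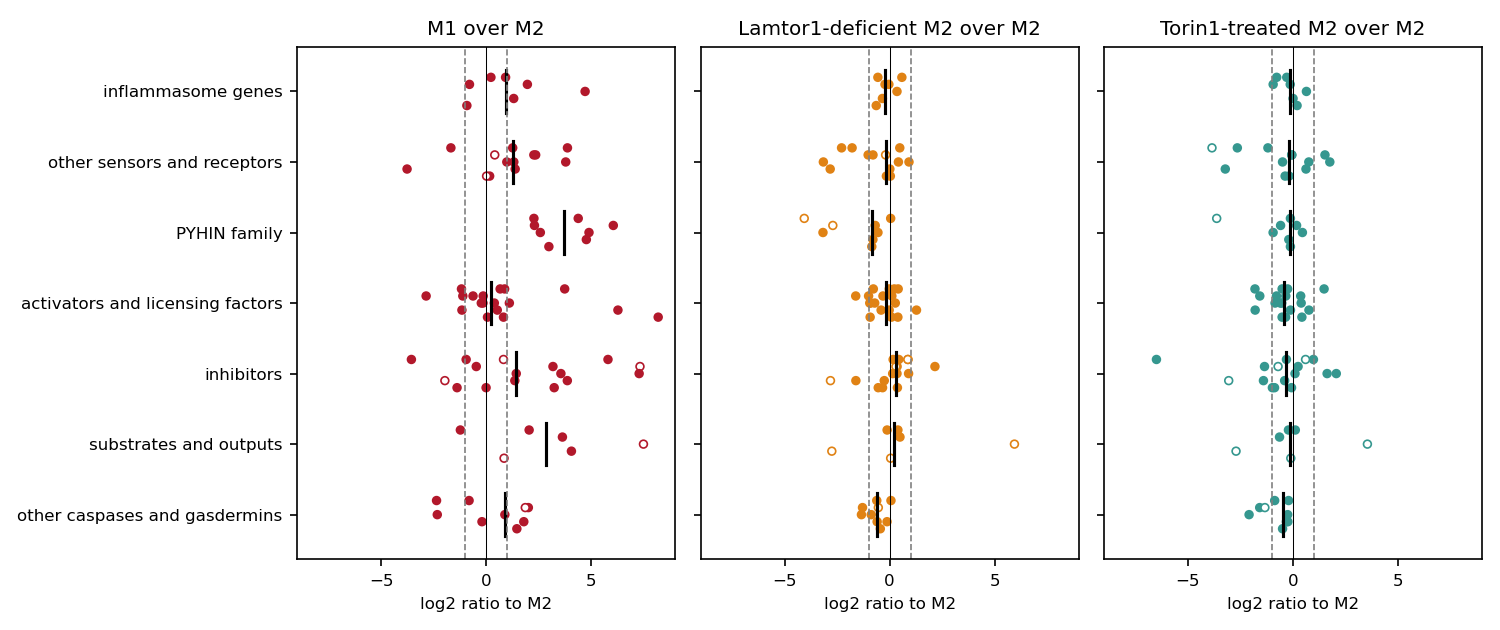
Log2 ratio to M2 of every gene of the inflammasome group and of 6 lists of other pathway genes, 1 panel per comparison. Vertical bars are list medians, dashed lines 2-fold, and open circles genes not well above background on at least 1 of the arrays. The 8 PYHIN genes all lie to the right of 2-fold in M1, with a median of 3.68.

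Of 6 substrates and outputs, 4 were higher and 1 lower in M1. The processed signal of Il1b was 324 in M1, 40.4 in M2, 5.42 without Lamtor1 and 4.88 with Torin1. It was 16.7-fold higher in M1 than in M2, and was not well above background without Lamtor1 or with Torin1, at least 1.82-fold and at least 2.03-fold lower than in M2. Il18 was at 3.63 in M1, 0.50 without Lamtor1 and -0.64 with Torin1. Il1a, an alarmin that is released with IL-1β, was not well above background in M2, and was at least 44.0-fold higher in M1, at least 15.1-fold higher without Lamtor1 and at least 2.86-fold higher with Torin1. With normexp its ratios were 3.71, 2.39 and 0.91, the last under 2-fold, and those of Il1b without Lamtor1 and with Torin1 were -0.52 and -0.35. Ninj1, which ruptures the membrane after gasdermin pores open, was at 2.04 in M1 and within 0.40 of M2 on the other arrays.

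Inhibitors were called in both directions, 9 of 16 higher and 3 lower in M1 (7 and 5 with the median shift). Il1rn, the receptor antagonist of IL-1, was at 7.28, Il18bp, the soluble trap of IL-18, at 5.80, and Il1r2, the decoy receptor, was at least 64.1-fold higher. Serpinb1a, an inhibitor of neutrophil proteases and caspase activation, was at -3.56 in M1 and -6.50 with Torin1, but at 0.17 without Lamtor1. Sigirr, a negative regulator of IL-1 receptors, was at 2.16 without Lamtor1 and -1.35 with Torin1. Tnfaip3, which encodes A20, was at 3.56 in M1, 0.90 without Lamtor1 and 2.06 with Torin1, and Trex1, which degrades cytosolic DNA, at 3.86, -1.60 and -1.40.

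Of the other caspases and gasdermins, 4 of 9 were higher and 2 lower in M1 (2 and 4 with the median shift). Casp8, which can stand in for caspase-1, was at 1.46 in M1, -0.44 without Lamtor1 and -0.49 with Torin1. Casp6 and Casp2 were at -2.33 and -2.36 in M1, and Casp6 was also lower without Lamtor1 (-1.34) and with Torin1 (-2.09). Gsdme, another pore-forming gasdermin, was at -0.20 in M1, -0.59 without Lamtor1 and -0.24 with Torin1.

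Genes whose profile over the 4 arrays was most like that of a member were found by the Euclidean distance of centred log2 levels among the 12997 genes called well above background in every culture. They were Nfil3, Wdr44 and Refbp2 for Nlrp3, Tas2r109, Sumf1 and Hsbp1 for Aim2, and Mlxip, Gm4349 and Gclc for Nlrc4. For Pycard they were Gnai3, Pam and Rab31, for Casp1 Tada2b, Eif4ebp1 and 4632434I11Rik, and for Gsdmd Elf4, Fzd5 and Dbr1. The nearest distances for these genes were 0.033 to 0.076. Casp4 had no gene as close, with Gbp3, C4b and Dedd2 at 0.34 to 0.36. The 3 genes of Nlrp3 lay at 0.069 to 0.115, under the technical SD of its M1 ratio, 0.30, so their order was not resolved. Of its 2 probes, 1 was used. Among the members themselves, Casp1 and Gsdmd were the closest pair, at 0.60, and Nlrc4 and Casp4 the farthest, at 4.52.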

How the data were processed

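Gene expression had been measured on 4 Agilent whole mouse genome arrays, 1 per condition, on 62976 spots with 55681 non-control probes. The authors deposited scanner files whose processed signal intensity Feature Extraction had corrected for background and spatial trends, with no normalization between arrays. File headers name version 10.7.3.1 and the submitters' processing notes 10.5.1.1. A deposited series table held the same intensities within 0.497%.

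As in the study's methods, signals under 1 were set to 1, divided by the 75th percentile of the array (M1 287, M2 595, Lamtor1-deficient 536, Torin1-treated 470) and put on the log2 scale, without a filter on dim probes. Control spots and 170 to 226 outlier spots per array were left out, no spot was saturated, and spots of a probe were averaged. Of several probes, the one with the highest mean log2 signal stood for the gene. Of 23688 symbols, 23660 were measured on all arrays, and 19539 matched RefSeq symbols. Between 51.0% and 55.5% of probes were well above background, from signals of 15.7 to 21.6 upwards. The technical SD over repeated spots was near 0.2 for log2 signals under 100 and between 0.052 and 0.080 above. Where 1 of 2 arrays was not well above background, the fold is a bound, written "at least", from the lowest signal well above background there.

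No test was possible with 1 array per condition, so calls are 2-fold differences. The members, lists, named genes and alternatives were chosen with earlier results of these data known. Named genes are the members, 18 pathway genes listed by name, in each list the 3 with the largest ratio in each comparison, and the 3 nearest profiles. Alternatives were the median shift, quantile normalization, another percentile, normexp with an offset of 50 (limma 3.58.1, R 4.3.3), the series table, all probes, outlier spots kept, a floor, a filter, and thresholds of 1.5-fold and 3-fold. Other reference arrays for M1 were added after seeing the data. The scripts (Python 3.11.15, NumPy 2.4.6, pandas 2.3.3, matplotlib 3.10.9) were tested on simulated data. Some genes and motifs of the lists are not reported here. Ifi205 was not analysed here, and Gsdme, Lamtor1, Irgb10, Cptp, Adgre1, Chil3 and Siglecf were matched to other names on the array, all synonyms in RefSeq.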

Additional observations from a re-analysis of the deposited data

Results flagged for a closer look

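Aim2 lay on opposite sides of the M2 array in the IL-4 cultures, with a log2 ratio of 0.59 without Lamtor1 and -0.30 with Torin1. Both signs held under the 7 alternatives, of which the use of all probes could not change a gene with 1 probe. The Torin1 ratio of Aim2 was within 2 errors of the scanner software. With 1 array per condition, the difference was not tested. Sigirr, an inhibitor from the pathway lists, was at 2.16 without Lamtor1 and -1.35 with Torin1, and this difference was not tested either. Both signs held under the 4 alternatives of scaling and background, and with normexp the Torin1 value was -0.70, under 2-fold.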

How the results depend on the processing

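No paired analysis was possible because each condition has 1 array, which leaves no residual degrees of freedom, and for the same reason no array could be left out. Of 120 values of the counts and medians under alternatives, 104 stayed within 1.5 times the count or within 2 technical SDs of the median and 16 did not. Of 147 log2 ratios of single members, 123 stayed within 2 technical SDs and 140 kept their sign, the exceptions being Nlrp3 and Casp1, Nlrc4 and Gsdmd values near 0. Some alternatives could hardly move a member, so these counts do not measure how stable the values are. Every member was well above background on every array, so the floor and the filter returned the main values. The series table held nearly the same intensities, and the use of all probes could change Nlrp3 and Casp4 only. With the median shift, the median over the members was 0.10 in M1 and -0.38 with Torin1, and 2 members were 2-fold lower in each. Quantile normalization gave 1 member lower in M1 and a median of -0.40 without Lamtor1. Normexp gave a median of 0.76 in M1 and 9 pathway genes lower with Torin1 in place of 16. At 1.5-fold, 2 members were lower in M1, 1 was higher and 1 lower without Lamtor1, and 1 was higher and 2 lower with Torin1. Against the Torin1-treated array, M1 had 5 members higher, 1 lower and a median of 1.22. The share of higher among all genes called in M1 was 61.5%, 33.0% with the median shift and 44.0% with quantile normalization, and with Torin1 55.0%, 39.0% with the median shift and 46.3% with quantile normalization. The median of all genes with Torin1 was -0.30 with the median shift and 0.21 with normexp. Signal over background limits Nlrp3, whose technical SD is near 0.3.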
